A study of Homo sapiens with 4 samples.

Results

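The collagen chain genes were taken as the protein-coding genes of the RefSeq annotation of GRCh38 whose symbols have the form COL, number, A, number. They numbered 44 of 20037 protein-coding genes on chromosomes 1 to 22, X and Y, and lay on 17 of those chromosomes. An antibody to MTA1, which belongs to the NuRD chromatin complex, was used to immunoprecipitate DNA of HCT116, an established human line of epithelial cells derived from a colorectal carcinoma, after crosslinking with formaldehyde. Of the 4 libraries, 2 were MTA1 immunoprecipitates and 2 were input controls made without antibody, and the labels name no treatment or genotype difference between them. The authors' calls formed 2 peak lists, of which list 1 set MTA1 library 1 against input 1 and list 2 set MTA1 library 2 against input 2. The labels do not say whether the libraries came from separate cultures, and the cell type was not checked against marker genes, because peak lists carry no expression values. They carry no read totals either, so the depth behind each peak is unknown.

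Collagen chains assemble into helical trimers that form the fibrils, networks and filaments of the extracellular matrix. Fibrillar chains such as COL1A1 and COL1A2 are made mainly by fibroblasts and bone cells, whereas the type IV chains COL4A1 to COL4A6 build the network of basement membranes, on which epithelia of the colon rest. The type IV genes lie in head-to-head pairs, in which neighbouring genes are transcribed away from each other from a common stretch of promoter DNA. NuRD, the complex of MTA1, removes acetyl groups from histones and moves nucleosomes, and is found at many promoters and enhancers.

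At gene ends, MTA1 peaks found in both lists lay at only 2 places among the collagen genes, the head-to-head promoters of COL4A1 with COL4A2 and of COL4A3 with COL4A4. These 2 regions gave 4 of 44 genes a shared region, here a stretch joined from overlapping peaks to which both lists contributed, whose midpoint lay within 1000 bp of either gene end (9.09%, 95% Wilson interval 3.59 to 21.2%). Of all protein-coding genes, 2% had one. The paired genes share each region, so the 4 genes stand for 2 observations. Inside the genes, list 1 peaks were numerous in a few members, led by COL18A1, which held 22 of them and no interior list 2 peak. The promoter sequences at these places are shown first, as RefSeq gives them for GRCh38.p14, from 250 bp before to 50 bp after an annotated start. Capitals mark the GC box (GGGCGG or its reverse complement CCGCCC, bound by SP1-type factors) and the CCAAT box (CCAAT or ATTGG), which do not overlap each other here.

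The COL4A2 promoter (chr13:110307034-110307333, plus strand) and that of COL4A3 (chr2:227164374-227164673, plus strand) are shown because a region of both lists lay over each. The COL4A5 promoter (chrX:108439588-108439887, plus strand) is shown as the remaining type IV pair, where neither list had a peak. The inner COL18A1 promoter (chr21:45455272-45455571, plus strand) lay under the best-scoring list 1 peak of that gene.
COL4A2: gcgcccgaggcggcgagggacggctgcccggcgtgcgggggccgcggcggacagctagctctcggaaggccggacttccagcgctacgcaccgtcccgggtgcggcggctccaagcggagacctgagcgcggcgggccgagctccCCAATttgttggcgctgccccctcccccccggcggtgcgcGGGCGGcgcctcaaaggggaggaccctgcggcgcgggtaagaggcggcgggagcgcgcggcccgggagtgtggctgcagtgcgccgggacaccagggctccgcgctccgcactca
COL4A3: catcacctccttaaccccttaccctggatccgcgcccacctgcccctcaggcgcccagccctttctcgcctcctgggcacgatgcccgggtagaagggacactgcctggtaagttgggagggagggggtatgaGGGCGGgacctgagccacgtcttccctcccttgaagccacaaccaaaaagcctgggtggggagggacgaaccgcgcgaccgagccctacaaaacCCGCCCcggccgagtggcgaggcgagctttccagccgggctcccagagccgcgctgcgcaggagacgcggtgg
COL4A5: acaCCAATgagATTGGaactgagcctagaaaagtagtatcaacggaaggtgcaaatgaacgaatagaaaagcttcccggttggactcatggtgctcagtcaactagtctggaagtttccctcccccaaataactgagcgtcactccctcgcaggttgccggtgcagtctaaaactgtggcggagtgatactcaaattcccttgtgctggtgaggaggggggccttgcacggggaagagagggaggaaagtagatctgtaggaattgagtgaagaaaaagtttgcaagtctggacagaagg
COL18A1: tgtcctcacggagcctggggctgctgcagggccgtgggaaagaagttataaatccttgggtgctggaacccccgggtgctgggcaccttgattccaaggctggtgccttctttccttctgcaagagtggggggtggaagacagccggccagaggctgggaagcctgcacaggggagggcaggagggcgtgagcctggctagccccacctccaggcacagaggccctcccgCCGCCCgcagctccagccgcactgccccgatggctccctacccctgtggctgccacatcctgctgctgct

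The COL4A2 sequence was 77.7% G and C with 45 CpG dinucleotides, and held 1 GC box and 1 CCAAT box. COL4A3 had 67.7% and 24 CpG, with 2 GC boxes and no CCAAT box. COL4A5 had 49.3% and 8 CpG, with 2 CCAAT boxes and no GC box. The inner COL18A1 promoter had 66.3% and 10 CpG, with 1 GC box. Over the 15843 protein-coding genes with an entry in the promoter table, the median was 62.7% and 22 CpG, 58.3% held a GC box and 36.4% a CCAAT box. A match describes the letters of these windows and not a bound site.

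COL4A1 and COL4A2, whose chains together form the most widespread type IV collagen, have annotated starts 127 bp apart on chromosome 13. In list 1, a single peak at 110306525 to 110307581 covered both starts, with a score of 81.0 (rank 7956 of 32003). The score is the value the authors' peak caller gave each peak, and its scale is not given in the files or labels. In list 2, the main peak at 110306754 to 110307827 scored 95.70 (rank 1568 of 30939), and its midpoint lay 6 bp from the start of COL4A2. A weaker list 2 peak at 110306378 to 110306708 scored 51.66 (rank 27877), and the 3 peaks merged into 1 region. The peak of 95.70 had the best rank of all list 2 peaks at collagen gene ends.

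COL4A3 and COL4A4, which encode chains of the basement membranes of kidney, ear and lung, have 5′ gene ends 136 bp apart on chromosome 2. The promoter table places the start of COL4A4 283 bp farther inside that gene. The list 1 peak at 227164621 to 227165317 scored 55.43 (rank 24036) and the list 2 peak at 227164295 to 227165107 scored 67.70 (rank 9605). The list 1 peak began 3 bp before the start of COL4A3 and ran into that gene, while the list 2 peak spanned the space between both gene ends and did not reach the COL4A4 start of the promoter table. Both type IV regions remained when the overlap had to cover 50% or more of the list 1 peak and also of the list 2 peak. When only the better-scoring 50% of each list was used, the COL4A1 and COL4A2 region was left and that of COL4A3 and COL4A4 was not, so the latter rests on a list 1 peak of the weaker 50%.

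COL4A5 and COL4A6, whose starts lie 380 bp apart on chromosome X, had no peak of either list at an end. Their surroundings were also poor in peaks. Within 500 kb on either side of COL4A6 there was 1 list 1 peak and no list 2 peak, and around COL4A5 there were 3 and 1. Those around COL4A5 include the interior peaks of its partner COL4A6, 2 of list 1 and 1 of list 2. The part of the surroundings in the missing end peaks was not tested. Among the 814 head-to-head pairs of protein-coding genes with starts within 1000 bp of each other and with strand in the promoter table, a list 1 peak lay within 1000 bp of a start in 33.2%, a list 2 peak in 6.39% and a shared region in 2.83% (23 pairs, of which 2 are the type IV pairs). Of the 3 collagen pairs, 2 had each. The plot of the type IV pairs shows the peaks drawn to scale.

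**Figure D1:**
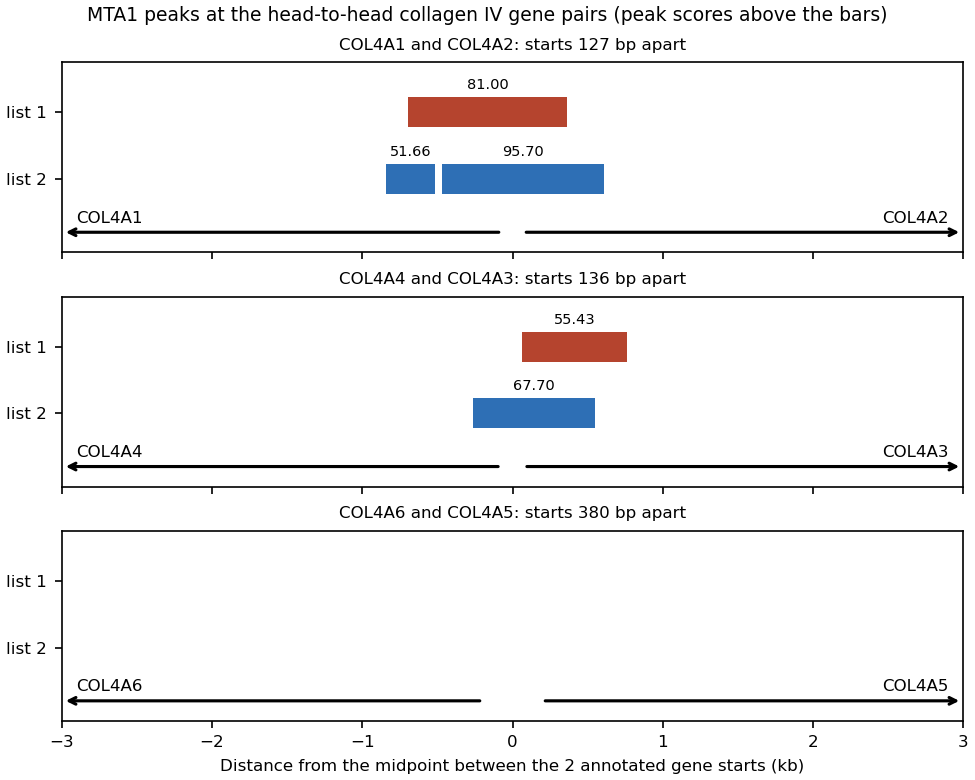
Peaks of list 1 (red) and list 2 (blue) around the starts of the 3 head-to-head type IV collagen gene pairs, by distance in kb from the midpoint between the starts; numbers are peak scores and arrows are the genes. Peaks of both lists overlap at COL4A1 with COL4A2 (81.00 against 95.70 and 51.66) and at COL4A4 with COL4A3 (55.43 against 67.70), and none is drawn at COL4A6 with COL4A5.

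Gene ends as a whole carried list 1 peaks in 18 of 44 collagen genes (40.9%, Wilson interval 27.7 to 55.6%), against 24.3% of all protein-coding genes. List 2 peaks lay at the ends of 6 (13.6%, 6.40 to 26.7%), against 6.28%. Counted by place, because paired genes share peaks, these were 16 and 4 groups of genes. The intervals cover counting error only, and no test was made, because the genes were proposed with results of these lists known. Scores at collagen ends differed in direction between the lists. Their list 1 median was 56.0 over 18 peaks, against 71.7 over 4667 peaks at the ends of all protein-coding genes. In list 2 it was 67.7 over 5 peaks, against 62.6 over 1174. With the better-scoring 50% of each list, 6 of 44 genes had a list 1 end peak, against 16.4% of all protein-coding genes, and 5 of 44 had a list 2 end peak, against 3.53%.

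Where the strand was known, all peaks at collagen ends but 1 lay at the 5′ end of the gene. The promoter table gives a strand for 32 of the 44 genes. It has no entry for COL1A1, COL1A2, COL2A1, COL3A1, COL5A2, COL6A1, COL6A5, COL8A1, COL9A3, COL14A1, COL20A1 and COL22A1, for which only the lower-coordinate and upper-coordinate ends are named here. A list 1 peak lay within 1000 bp of the 5′ end of 13 of 32 genes (40.6%, 25.5 to 57.7%), against 20.1% of protein-coding genes with strand, and within 1000 bp of the 3′ end of 1 of 32, COL6A2 (3.13%, 0.554 to 15.7%), against 6.41%. List 2 peaks lay at the 5′ end of 5 of 32 (15.6%, 6.86 to 31.8%, against 4.62%) and at the 3′ end of 0 of 32 (upper bound 10.7%, against 1.74%). Shared regions lay at the 5′ end of 4 of 32 (12.5%, 4.97 to 28.1%, against 1.79%) and at the 3′ end of 0 of 32, against 0.221%. These 4 are the paired type IV genes, which share peaks and also enter the list 1 and list 2 counts at 5′ ends. The intervals treat paired genes as separate and are therefore too narrow. The promoter window of 300 bp itself was overlapped by a list 1 peak in 7 of 32 genes (against 16.7% of 15843) and by a list 2 peak in 4 of 32 (against 2.85%). Those 7 windows, of which those of COL4A1 and COL4A2 overlap each other, had a median of 73.3% G and C (58.3 to 82.0%). The other 25 had a median of 64.0% (32.3 to 86.7%, the highest in COL18A1). Over all protein-coding genes the same medians were 67.0% and 61.7%. GC boxes were present in 6 of the 7 and in 11 of the 25, and over all protein-coding genes in 71.4% of windows with a list 1 peak and 55.7% of those without.

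Among fibrillar genes, 3 of 11 had a list 1 peak at an end. COL1A1, a chain of type I collagen, had the best-scoring list 1 peak of any collagen end, 106.29 (rank 3234) at 50200866 to 50202000 of chromosome 17, 198 bp from its upper-coordinate end. The nearest list 2 peak was 87751 bp away. COL5A3, a minor chain of fibrils, had 67.80 over its start (10010062 to 10010773 of chromosome 19). COL27A1, a chain of cartilage fibrils, had 56.62 at 475 bp inside its 5′ gene end. The promoter table places the start of COL27A1 1439 bp inside that end, and the peak did not reach it. COL1A2, the partner of COL1A1 in type I collagen, was the only fibrillar gene with a list 2 peak at an end, 59.33 (rank 16890) at 90 bp from its lower-coordinate end (94394651 to 94394959 of chromosome 7), and it had no list 1 peak there. The partner chains of type I collagen thus each had a peak at an end in 1 list, and not in the same list. COL2A1, COL3A1, COL5A1, COL5A2, COL11A1, COL11A2 and COL24A1 had none in either list.

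Beaded-filament genes of type VI collagen had a list 1 peak at an end in 3 of 5. COL6A5 had the second-best list 1 end peak, 84.47 (rank 6974) at 130345540 to 130346191 of chromosome 3, 193 bp from its lower-coordinate end. COL6A2 had 59.46 at 329 bp inside its start and 50.38 at its 3′ end, and COL6A3 had 57.83 at 888 bp from its start, the gene nearest to the limit of the window from inside. On the other side of that limit, COL18A1 had a list 1 peak of 68.69 at 1163 bp from an end and COL6A1 had one of 170.79 at 1276 bp. In list 2 the nearest inside was COL18A1 at 752 bp, and no other gene had its nearest peak between there and 3000 bp.

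FACIT genes, whose chains sit on the surface of fibrils, had a list 1 peak at an end in 4 of 10 and a list 2 peak in none. COL9A3, a cartilage chain, had 64.61 and 54.32 at its lower-coordinate and upper-coordinate ends, the latter nearer to an end of TCFL5 (429 bp against 583 bp). COL21A1 had 53.40 at 298 bp inside its start, COL20A1 had 52.23 at its upper-coordinate end and COL22A1 had 51.0 at 727 bp outside its upper-coordinate end. The remaining genes with a list 1 end peak were COL15A1, a basement membrane collagen (61.95), COL23A1, a transmembrane collagen (53.53, over its start), COL8A2, a chain of the corneal endothelial membrane (53.10, over its start), and COL7A1, the collagen of the anchoring fibrils that fix the epidermis (50.58, at 833 bp inside its start). COL18A1, the source of endostatin, had a list 2 peak of 72.22 (rank 7378) at 752 bp inside its start and no list 1 peak within 1000 bp of an end. The highest and lowest list 1 scores at a collagen end were 106.29 and 50.38, in a list whose lowest score was 50.

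Gene interiors, the span more than 1000 bp inside both ends, held a list 1 peak in 32 of 44 collagen genes (72.7%, 58.2 to 83.7%), against 35% of all protein-coding genes. List 2 peaks lay in 24 (54.5%, 40.1 to 68.3%), against 33.4%, and 18 genes held interior peaks of both lists, where 18.2 would at the shares of other genes in the same length classes. Length bears on these shares, because collagen genes are long. Their median length was 144.7 kb, from 16.8 kb (COL9A2) to 493.9 kb (COL25A1), against 24.1 kb for other protein-coding genes, and 41 of 44 exceeded that. Rates per 100 kb of interior were therefore compared within classes of length.

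In every length class that holds collagen genes, their list 1 rate was above that of the other genes. It was 11.7 peaks per 100 kb (95% Poisson interval 6.05 to 20.4, 5 genes) against 2.99 at 10 to 30 kb, and 4.13 (2.72 to 6.01, 13 genes) against 1.86 at 30 to 100 kb. It was 2.10 (1.64 to 2.64, 19 genes) against 1.17 at 100 to 300 kb, and 1.38 (0.972 to 1.90, 7 genes) against 0.682 over 300 kb. Peaks of a gene lie in clusters, so these intervals are too narrow for differences between genes. At the rates of other genes in the same classes, 73.6 list 1 peaks would lie in the collagen interiors, and 148 did, a ratio of 2.01. List 2 went the other way, with 55 peaks against 79.6, a ratio of 0.691. Its rate was 1.95 (0.236 to 7.05) against 1.63, 0.306 (0.0370 to 1.10) against 1.67, 0.874 (0.589 to 1.247) against 1.28 and 0.784 (0.485 to 1.20) against 0.855 in the same order of classes.

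List 1 interior peaks were unevenly spread over the genes. COL18A1, COL23A1, COL22A1, COL5A1 and COL4A2, the 5 genes with 10 or more list 1 interior peaks, held 79 of the 148 (53.4%). Without the 3 genes of chromosome 21 the ratio was 1.60 in list 1 and 0.711 in list 2. Without the 5 genes with most list 1 interior peaks, the others held 69 list 1 peaks, where 63.0 would lie, a ratio of 1.09. In list 2 that ratio was 0.669. Leaving out the genes with the highest counts lowers the list 1 ratio by construction. Set against protein-coding genes from 20% shorter to 25% longer than itself, a collagen gene held more list 1 interior peaks than the median in 23 cases, fewer in 11 and the same number in 10. In list 2 these counts were 12, 16 and 16. For many of the shorter genes, such as COL1A1, COL6A1 and COL7A1, that median was 0 in both lists. Such a gene could not hold fewer, so the numbers of genes above and below the median are not a balanced contrast. The plot by gene length shows both lists.

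**Figure D2:**
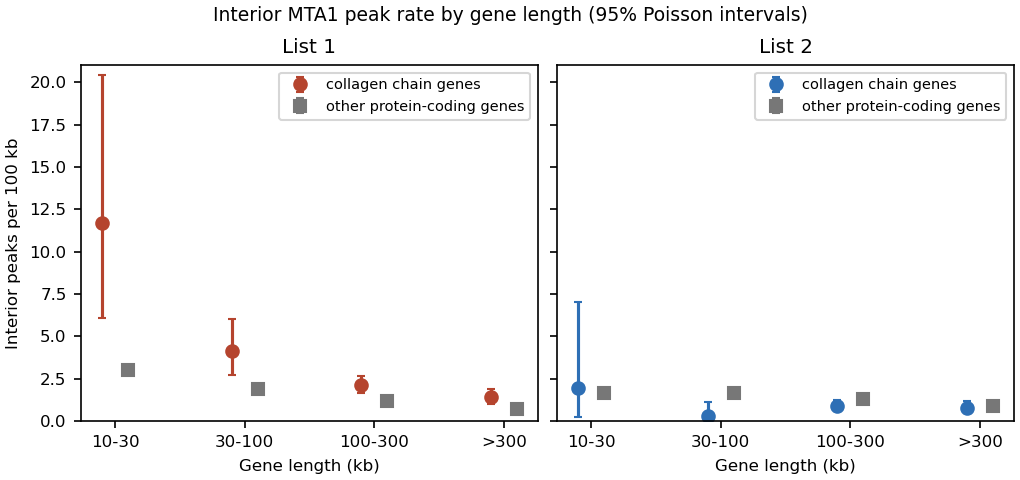
Interior peaks per 100 kb in collagen chain genes (coloured) and in other protein-coding genes (grey squares) by gene length class in kb, with 95% Poisson intervals, for list 1 (left) and list 2 (right). Collagen genes lie above the others in all 4 classes of list 1 (11.7 against 2.99 in the shortest), and below them in 3 of 4 classes of list 2.

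COL18A1, a proteoglycan-like collagen of basement membranes, held 22 list 1 interior peaks in 108.6 kb (20.6 per 100 kb) and no list 2 interior peak. Of 1527 other genes of similar length, 99.9% held fewer list 1 peaks, with a median of 1. Its scores ran from 51.11 to 213.27 with a median of 84.0. The best peak (45454732 to 45457589 of chromosome 21, rank 232) covered the inner promoter shown above, whose start lies 50357 bp inside the gene, and the next (45438303 to 45440298, score 199.60, rank 291) lay within 1000 bp of the end of a non-coding gene. No list 2 peak was found over that inner promoter. Other promoter entries of collagen genes more than 1000 bp from the annotated 5′ end lay in COL4A6, COL9A1, COL10A1, COL11A2, COL21A1, COL27A1 and COL28A1. For COL27A1 and COL28A1 this was the only entry. None of these entries was overlapped by a peak of either list.

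The type VI genes of chromosome 21 had the highest list 1 rates per length. COL6A1 held 5 interior peaks in 23.3 kb (23.5 per 100 kb, scores 67.21 to 170.79), and COL6A2 held 7 in 34.7 kb (21.4 per 100 kb, scores 54.29 to 168.65), with no list 2 peak in either. These 2 genes and COL18A1 lie within 1 Mb of each other near the end of chromosome 21 and together held 34 of the 148 list 1 interior peaks, at 21.2 per 100 kb. The 15 other protein-coding genes from 45 Mb onward on that chromosome had 5.13 list 1 interior peaks per 100 kb, and all other protein-coding genes of the chromosome had 1.92. COL6A3, which is on chromosome 2, had 1 interior peak of each list (1.13 per 100 kb), COL6A6 had 2 of each, and COL6A5 had none.

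Other fibrillar genes differed widely among themselves. COL5A1, the regulatory chain of type V fibrils, held 14 list 1 interior peaks (6.96 per 100 kb) and 1 list 2 peak. It had the best-scoring interior peak of any collagen gene, 257.85 (rank 133) at 134761137 to 134762529 of chromosome 9, 59.1% of the way along the gene, and the nearest list 2 peak was 76830 bp away. It also had the only interior region of both lists, at 134839230 to 134840327, 97.5% of the way along, with scores of 83.36 (rank 7269) and 55.71 (rank 21683). That 1 of 44 genes (2.27%, 0.402 to 11.8%) compares with 2.34% of all protein-coding genes. COL1A1 held 3 list 1 peaks in a gene of 17.5 kb (scores 156.94, 115.34 and 79.45, or 19.3 per 100 kb) and COL27A1 held 7. COL5A2, the partner chain of COL5A1, was the reverse, with 1 list 1 peak (58.69) and 7 list 2 peaks (54.26 to 95.20). COL11A1 had 0 and 3, COL24A1 had 1 and 3, COL1A2 and COL5A3 had 2 and 0, COL2A1 had 1 and 0, and COL3A1 and COL11A2 had no peak of either list.

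Among transmembrane genes, COL23A1 held 17 list 1 peaks (4.85 per 100 kb, scores 50.36 to 190.91) and 4 list 2 peaks, which included the best list 2 score inside any collagen gene, 116.97 (rank 500). COL17A1, a hemidesmosome collagen of epithelial cells, held 3 list 1 peaks and none of list 2. COL13A1 held 2 and 0, and COL25A1, the longest collagen gene, held 1 and 3. The FACIT gene COL22A1 held 16 list 1 peaks (4.94 per 100 kb, scores 50.15 to 99.46) and 2 list 2 peaks, while COL14A1 held 1 and 6 (list 2 scores 54.34 to 92.23) and COL20A1 held 6 and 1. The other FACIT genes held at most 1 peak of either list, apart from COL9A3 with 3 list 1 peaks. Among the type IV genes, COL4A2 held 10 and 3 and COL4A1 4 and 1, against 1 and 0 in COL4A4, 0 and 3 in COL4A3, 2 and 1 in COL4A6 and none in COL4A5. COL15A1, of the same class as COL18A1, held 3 and 4, and COL26A1 held 3 of each list. The short-chain genes COL8A1 and COL8A2 held 1 of each and COL10A1, a collagen of growth cartilage, held none. COL7A1 held 4 list 1 peaks in 31.3 kb (13.7 per 100 kb) and none of list 2, and COL28A1 held 1 list 2 peak. The highest list 2 rates were those of COL9A2 (6.76 per 100 kb, from a single peak of 55.76), COL8A2 (3.57, a single peak of 95.85), COL15A1 (4 peaks in 126.9 kb), COL20A1 (2.52, a single peak of 53.58) and COL14A1 (2.43).

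**Figure D3:**
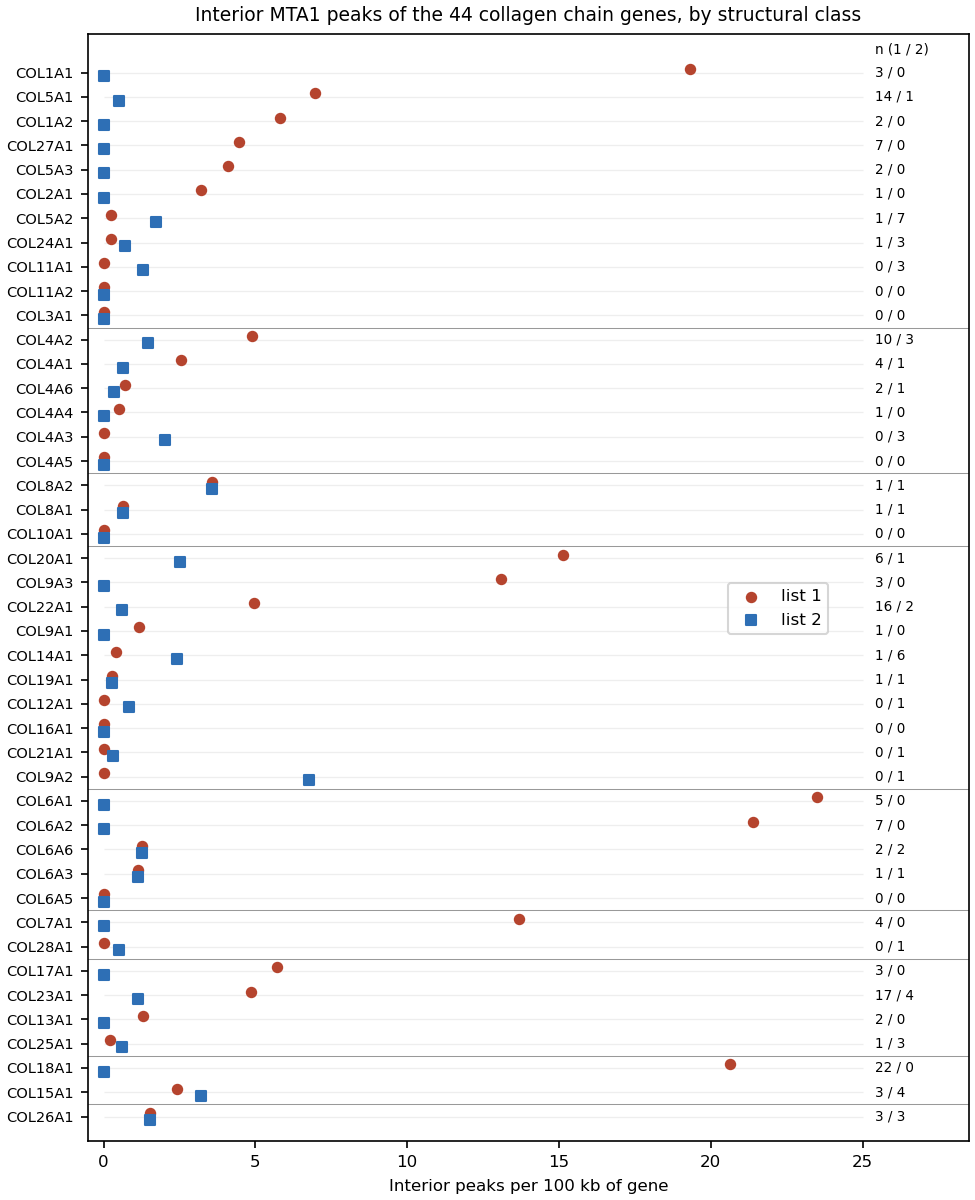
Interior peaks per 100 kb of gene in list 1 (red circles) and list 2 (blue squares) for each of the 44 collagen chain genes, grouped by structural class from fibrillar (top) to other (bottom), with the number of peaks of each list at the right. List 1 rates range from 0 to 23.5 (COL6A1) and list 2 rates from 0 to 6.76 (COL9A2).

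Interior rates in list 1 and in list 2 were little related across the collagen genes. Across the 44 genes the Spearman correlation of the rates was -0.16, and across 13508 other genes with an interior of at least 10 kb it was 0.04. The lists share no library, but the genes share base composition and copy number in both. In all, 5 genes (COL3A1, COL4A5, COL10A1, COL11A2 and COL16A1) had no peak of either list, 12 had list 1 peaks alone, 4 had list 2 peaks alone and 23 had both. At the shares of other genes in the same length classes, these numbers would be 7.43, 7.85, 7.65 and 21.1 genes. Over all protein-coding genes, which are shorter, the shares were 38.2%, 24.8%, 13.2% and 23.8%. Peaks of the lists seldom coincided within the same gene. Of 166 list 1 peaks at the ends or inside collagen genes, 3 overlapped a list 2 peak (1.81%, against 3.51% of all list 1 peaks), and of 60 list 2 peaks, 4 overlapped a list 1 peak (6.67%, against 3.62%).

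Interior scores in list 1 were a little above those of other genes. The median was 70.4 over 148 peaks, against 63.6 over 16081 interior peaks of all protein-coding genes, and the median width was 853.5 bp against 736 bp. In list 2 it was 61.3 over 55 peaks, against 60.4 over 15234, with widths of 451 and 447 bp. A score of 100 or more was reached by 25 list 1 interior peaks and by 1 of list 2. The cut takes unlike shares of the lists, so these counts do not compare them. The like counts for interior peaks of all protein-coding genes are not given here, so the counts have no background. A list 1 score of 100.74 had rank 3895 of 32003, while a list 2 score of 95.70 had rank 1568 of 30939.

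Along the genes, list 1 peaks lay more often towards the 3′ end. Of 109 list 1 interior peaks in collagen genes with strand, 37 lay in the first 50% of the gene (33.9%), against 44.5% of 13075 in other genes. Without COL18A1 the share was 34.5% of 87. Of the 11 such genes with 3 or more list 1 interior peaks, 9 had more in the last 50%, 1 (COL4A1) had more in the first, and COL7A1 had equal numbers. COL4A2 had 2 and 8, COL5A1 had 4 and 10, and COL17A1 and COL26A1 had 0 and 3. In list 2, 16 of 38 lay in the first 50% (42.1%), against 52.7% of 12670. Of the 8 such genes with 3 or more list 2 interior peaks, 4 had more in the last 50% and 3 had more in the first. Like counts for other protein-coding genes are not given here, so these counts of genes have no background. The plot along the genes shows the peaks of the genes with most.

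**Figure D4:**
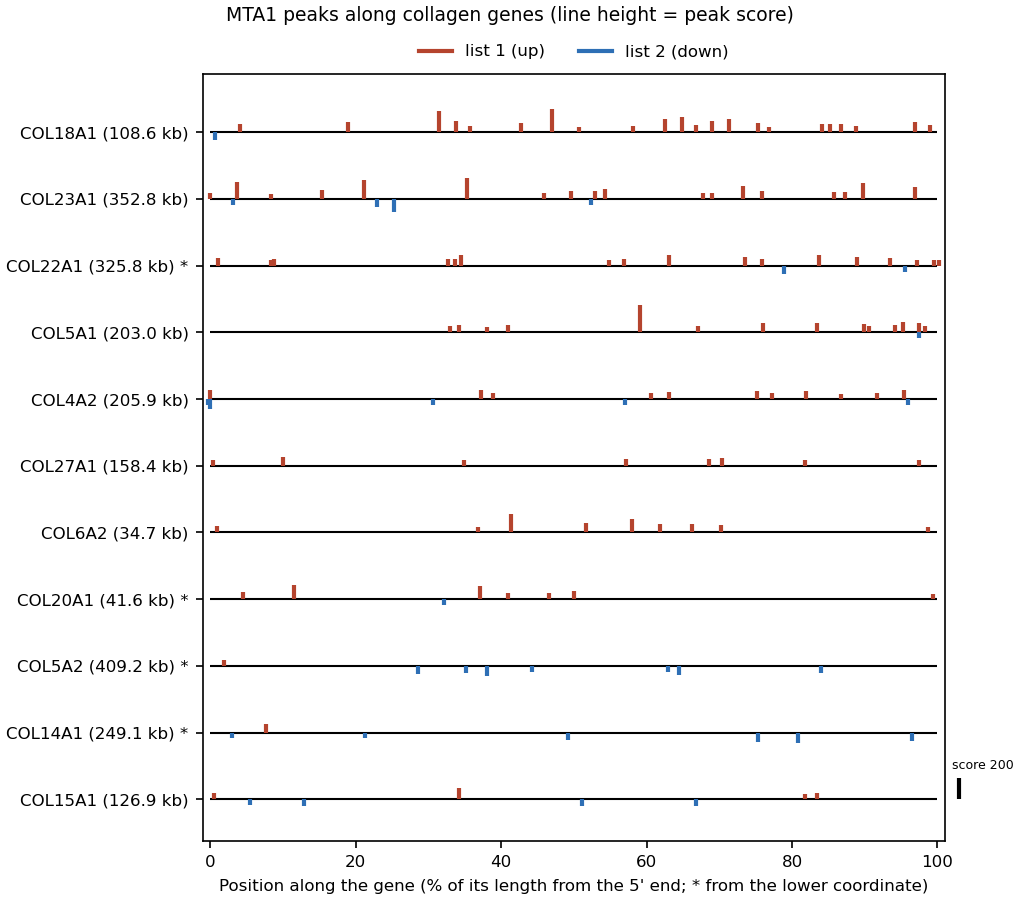
Positions of list 1 peaks (red, upward) and list 2 peaks (blue, downward) along the 8 collagen genes with most list 1 interior peaks and those with most list 2 peaks, in percent of gene length from the 5′ end, or from the lower coordinate where starred; line height is the peak score. COL18A1 carries 22 interior list 1 peaks and no interior list 2 peak, and COL5A2 carries 1 and 7.

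In list 1, genes with a higher interior rate also lay in surroundings with more peaks. Over 500 kb on either side of each gene, with 1000 bp next to the gene left out, list 1 had a pooled rate of 2.34 peaks per 100 kb, against 1.94 around other genes over 10 kb long, and 2.15 (1.82 to 2.53) inside the collagen genes themselves. In both lists the pooled flanking rate weighs each gene alike, while the pooled interior rate gives long genes more weight, so these pooled rates are not like measures. The list 1 medians of single genes were 1.21 inside and 1.20 around. Across the 44 genes the Spearman correlation of interior and flanking list 1 rates was 0.75, and across 13508 other genes it was 0.39. The genes are not separate points, because 17 of them have another collagen gene within the flanks. With the peaks and length of other collagen genes left out of the flanks, the correlation was 0.74. The 7 genes with more than 5 flanking list 1 peaks per 100 kb were COL1A1, COL5A1, COL6A1, COL6A2, COL9A3, COL18A1 and COL20A1. They held 60 interior list 1 peaks in 439.7 kb (13.6 per 100 kb), and the other 37 genes held 88 in 6430 kb (1.37 per 100 kb). Most of the 7 are short, and short genes had higher rates in general. Other genes split at the same flanking rate give 29.1 and 58.2 peaks at their rates in the same length classes. The interior rate was above the flanking rate in 22 of 44 genes (50.0%), against 32.4% of 14299 other genes over 10 kb. The other genes were not matched for length, either here, in the correlations or in list 2. The median interior rate of those over 10 kb was 0 in both lists, and a gene without interior peaks cannot exceed its flanks. COL18A1 had 20.6 inside and 6.51 around, COL6A2 had 21.4 and 5.71, COL7A1 had 13.7 and 2.51, and COL22A1 had 4.94 and 0.902, while COL5A1 had 6.96 and 8.52. For list 2 the interior rate was above the flanking rate in 13 of 44 genes (29.5%), against 33.3%, the pooled rates were 0.801 inside and 1.17 around, and the correlation was 0.06. The part of the surroundings, of base composition and of copy number in the interior counts was not tested.

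**Figure D5:**
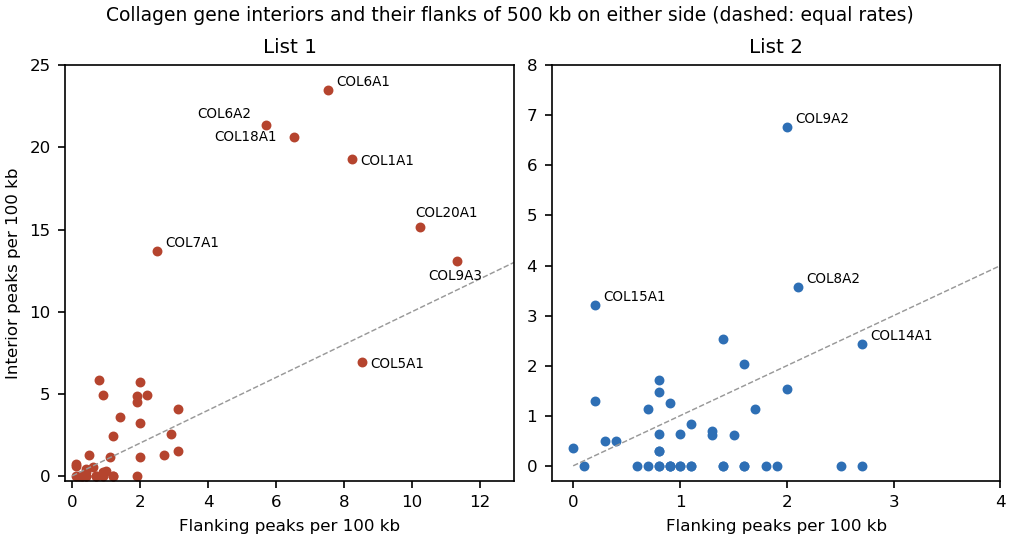
Interior peaks per 100 kb of each of the 44 collagen genes against peaks per 100 kb in the 500 kb on either side, for list 1 (left) and list 2 (right), with a dashed line at equal rates. In list 1 the genes with the highest interior rates, COL6A1 (23.5), COL6A2 (21.4), COL18A1 (20.6) and COL1A1 (19.3), have flanking rates of 7.52, 5.71, 6.51 and 8.22.

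Genes that act on collagen chains were counted in the same way. A list 1 peak lay at an end of 15 of 52 such genes (24.3% of all protein-coding genes had one). A list 2 peak lay at an end of 1 (against 6.28%) and a shared region at none (against 2%). Among modification and folding genes 6 of 21 had a list 1 end peak, led by COLGALT2, a galactosyltransferase of collagen hydroxylysine (186.53), PLOD2, a lysyl hydroxylase (92.42), and P3H3, of the prolyl 3-hydroxylase family (92.25). Processing and cross-linking genes had 5 of 13, led by ADAMTS14, a procollagen N-proteinase (101.95), TLL2, a tolloid-like proteinase (100.72), and BMP1, a procollagen C-proteinase (98.01). Collagen receptors had 3 of 10, ITGA2 (82.35), MRC2 (66.60) and DDR2 (65.25). Of 8 degradation genes, MMP2, a gelatinase, had a list 1 peak (64.80) and MMP14, a membrane-bound collagenase, had the list 2 peak (54.03). In their interiors, processing and cross-linking genes had 37 list 1 peaks and 8 of list 2, where the rates of other genes in the same length classes give 17.9 and 17.5. Receptors had 16 and 4, against 11.2 and 10.5. Modification genes had 17 and 16, against 17.7 and 15.3, and degradation genes had 3 and 2, against 3.85 and 2.40.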

How the data were processed

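Per the labels' protocols, HCT116 libraries of MTA1 ChIP and input underwent paired-end sequencing. Per the submitters' processing notes, the tools were cutadapt, a read trimmer, and Bowtie2, an aligner, with GRCh38 as the build and no versions stated. The deposited lists, 1 per replicate, give a position and a score for each peak. Peak names have the form that MACS writes, per the file contents, and the caller's settings were not given in the sources used here. Lists 1 and 2 held 32042 and 31079 peaks, of which 32003 and 30939 lay on chromosomes 1 to 22, X and Y. No read counts were analysed, so no depth per library and no spread between libraries can be given.

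Genes and promoters came from RefSeq tables of GRCh38.p14. Strand came from the promoter table, which matched 32 of 44 collagen genes. A peak was at an end if its midpoint lay within 1000 bp of either end, and interior if farther inside. Overlapping peaks (at least 1 bp) were merged into 1114 shared regions. Counts were made in Python 3.11.15 with pandas 2.3.3, and shares have Wilson intervals (scipy 1.17.1). The counting was tested on simulated peaks, of which 100% were recovered at 200 gene ends. Alternatives covered windows, overlap rules and scores. The members, gene lists and counts were chosen with earlier results of these data known, so no test is given. Every collagen gene was accounted for, and full values were given for those with shared regions, list 2 end peaks, the best list 1 end scores, or the most or densest interior peaks. The inner COL18A1 promoter, the flanking rates, the position along genes and the exclusion of the genes of chromosome 21 were chosen after values were seen. So was the exclusion of the 5 genes with most list 1 interior peaks.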

Additional observations from a re-analysis of the deposited data

How the results depend on the processing

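Of 33 alternative values for 8 counts and rates, 24 stayed within 1.5 times the count or within the 95% Poisson interval of the rate. With the better-scoring 50% of each list, list 1 end peaks lay at 6 genes (18 with all peaks), shared end regions at 2 (4; 0.988% of all protein-coding genes) and shared interior regions at 0 (1), and interior rates were 1.27 per 100 kb in list 1 (2.15) and 0.422 in list 2 (0.801), a change that using fewer peaks brings by construction. With genes that share a peak counted once, shared end regions numbered 2. The median rate of single genes was 1.21 per 100 kb in list 1 and 0.326 in list 2. Without the 3 genes of chromosome 21, an alternative added after seeing the data, the list 1 rate was 1.70. Within 500 bp of an end, 13, 5 and 4 genes had a list 1 peak, a list 2 peak and a shared region, against 16.7%, 3.79% and 1.5% of all protein-coding genes, and within 3000 bp 22, 6 and 4 did, against 35.3%, 15% and 2.81%. No replicate could be left out of a list, since each list rests on 1 ChIP library, and both are given side by side. No paired analysis was possible because the results come from no test and the lists hold no values per library.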

Other observations

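Non-coding genes with collagen symbols, 12 in all, were not part of the comparisons, and no share over all non-coding genes is given beside their counts. List 1 peaks lay at an end of COL6A2-DT (3 peaks), a transcript divergent from COL6A2, and of COL18A1-AS1, COL18A1-AS2 and COL15A1-AS1 (1 each), which are antisense RNAs, and no list 2 peak lay at an end of any of the 12. The peak at COL15A1-AS1 is the one counted at the start of COL15A1, 58 bp from an end of the antisense gene, and 1 of the 3 at COL6A2-DT is the one counted at the start of COL6A2. The pseudogene COL6A4P2 held 2 list 2 peaks in its interior, and COL6A4P1 and COL11A2P1 held none of either list.

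Inside the protein-coding collagen genes, 9 of 148 list 1 interior peaks lay within 1000 bp of the end of a gene that is not protein-coding, and 0 of 55 list 2 peaks did. The like share for interior peaks of other protein-coding genes is not given here, so these counts have no background. Of these 9, 5 lay in COL18A1. A peak in COL27A1 (50.98) lay 167 bp from an end of MIR455, a microRNA gene inside that gene, and a peak in COL7A1 (65.15) lay 278 bp from an end of MIR711. No interior peak of either list lay within 1000 bp of the end of another protein-coding gene, though a COL18A1 peak (53.78) lay 1015 bp from an end of SLC19A1. COL18A1 overlaps SLC19A1, and COL4A4, COL9A3 and COL10A1 overlap RHBDD1, TCFL5 and NT5DC1, so a peak counted in these genes can also lie in the other gene. Without these 4 collagen genes the interior rate was 1.89 per 100 kb in list 1 and 0.853 in list 2.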
